A study of Mus musculus with 18 samples.

Results

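The genes of the mitochondrial ribosomal proteins were examined in 3 fat depots of the mouse. Members were all rows whose gene symbol begins with Mrpl or Mrps followed by a number, which found 80 symbols among the 52093 symbols of the iWAT and BAT tables. Of these, 76 stood for a single gene and were present in the tables of all 3 depots, 47 named for the large subunit (Mrpl) and 29 for the small subunit (Mrps). The other 4 were read-through symbols that join a member to its neighbour, and they are given separately. All 76 members passed the filter on low counts (at least 10 reads in at least 6 samples), and no difference between depots was used to choose them (where a symbol had several rows, the row with most reads stood for it).

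The data were RNA-seq libraries of male wild-type C57BL/6J mice that were 16 weeks old and ate regular chow, with no drug or transgene in any group. There were 6 samples of inguinal white adipocytes (iWAT), 6 of epididymal white adipocytes (eWAT) and 6 of brown adipose tissue (BAT). The white adipocytes were released with collagenase and taken from the floating layer, whereas BAT was frozen as whole tissue, although its cell type label reads BAT adipocytes. In any comparison with BAT, the depot cannot be told apart from how the sample was prepared, and in bulk RNA fewer cells of a type cannot be told apart from less RNA per cell.

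Mitochondria carry their own ribosome, which translates the few messenger RNAs of mitochondrial DNA, all of them for subunits of the respiratory chain and ATP synthase. Its proteins are encoded in the nucleus, made in the cytosol and imported, and they assemble with mitochondrial ribosomal RNA into a large subunit, where peptide bonds are formed, and a small subunit, where the message is decoded. Part of them have counterparts in bacteria and part are found only in mitochondria. Brown adipocytes are known for dense mitochondria that make heat through the uncoupling protein Ucp1.

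Each sample's values rested on a total of 22929576 to 34512470 reads, and 0.12 to 0.243% of them lay on the members. Adipoq, the adipocyte hormone adiponectin, had a median RPKM (reads scaled to row length and to the sample's total) of 1860 in both white depots and 290 in BAT. For Ucp1 the median RPKM reached 1200 in BAT, against 2.76 in iWAT and 0.347 in eWAT. Markers of other cells were present beside the adipocyte markers. Of 6 macrophage markers, 6 in iWAT, 6 in eWAT and 4 in BAT had a mean RPKM of at least 1, and their summed RPKM ranged over 22.8 to 125 (iWAT), 125 to 1840 (eWAT) and 20.3 to 48.5 (BAT). The 7 skeletal muscle markers, 3, 2 and 7 of them at a mean of at least 1, summed to 8.74 to 78.1 RPKM (iWAT), 11.4 to 45.6 (eWAT) and 1.13 to 1500 (BAT). The 5 epididymis markers summed to 82.5 and 70.4 RPKM in eWAT samples 14 and 15, to at most 3.56 in the other eWAT samples, and were all at 0 in iWAT. Summed RPKM was 54.7 to 308 (iWAT), 142 to 323 (eWAT) and 48.6 to 118 (BAT) for 6 endothelial markers, and 471 to 746, 172 to 263 and 31.9 to 45.8 for 5 stromal markers. Adipocyte markers (5) summed to 10200 to 15600, 8380 to 14900 and 5580 to 6840 RPKM, brown adipocyte markers (6) to 79.8 to 126, 14.1 to 27.8 and 3010 to 3750, lymphocyte markers (5) to 0.269 to 1.64, 2.38 to 25.5 and 0.438 to 1.25, and mesothelial markers (5) to 3.71 to 4.59, 15.6 to 30.9 and 11.1 to 13.4, in the same order of depots. The sums hide differences within the lists. In iWAT against BAT (edgeR adjusted p under 0.05), 3 of the 5 stromal markers were lower and 2 higher. Of the 6 endothelial markers, 2 were lower and 1 higher. Of the 5 mesothelial markers, 1 in iWAT, 4 in eWAT and 1 in BAT had a mean RPKM of at least 1. The part of these cells in the differences below was not tested.

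As a set, the members were lower in iWAT adipocytes than in BAT. Their summed RPKM was 718 in the lowest, 858 in the median and 997 in the highest iWAT sample, against 1170, 1260 and 1350 in BAT, and no iWAT sample reached the BAT range. The large subunit summed to 417 to 585 RPKM in iWAT (502 ± 58.0, mean ± SD, n = 6) and to 743 to 847 in BAT (796 ± 45.1, n = 6). The small subunit summed to 301 to 412 in iWAT (356 ± 39.6, n = 6) and to 427 to 499 in BAT (463 ± 28.6, n = 6). By symbol, both subunits were thus lower in every iWAT sample than in every BAT sample. With Mrps18a and Mrps30 counted in the large subunit and Mrps36 left out, the small subunit overlapped between the depots. It then summed to 284 to 390 RPKM in iWAT and 373 to 435 in BAT, and the large subunit to 426 to 597 and 753 to 860. In eWAT, where a row is 1 transcript and not the merged gene, the summed RPKM was 964, 1100 and 1340 (lowest, median and highest), which overlaps the BAT samples. Dividing by a shorter row raises RPKM, so this level is not on the same footing as the other 2 depots. Scaled by TMM factors (a normalisation by trimmed means), the sums were 862 to 1210 in eWAT and 1350 to 1600 in BAT, without overlap.

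**Figure D1:**
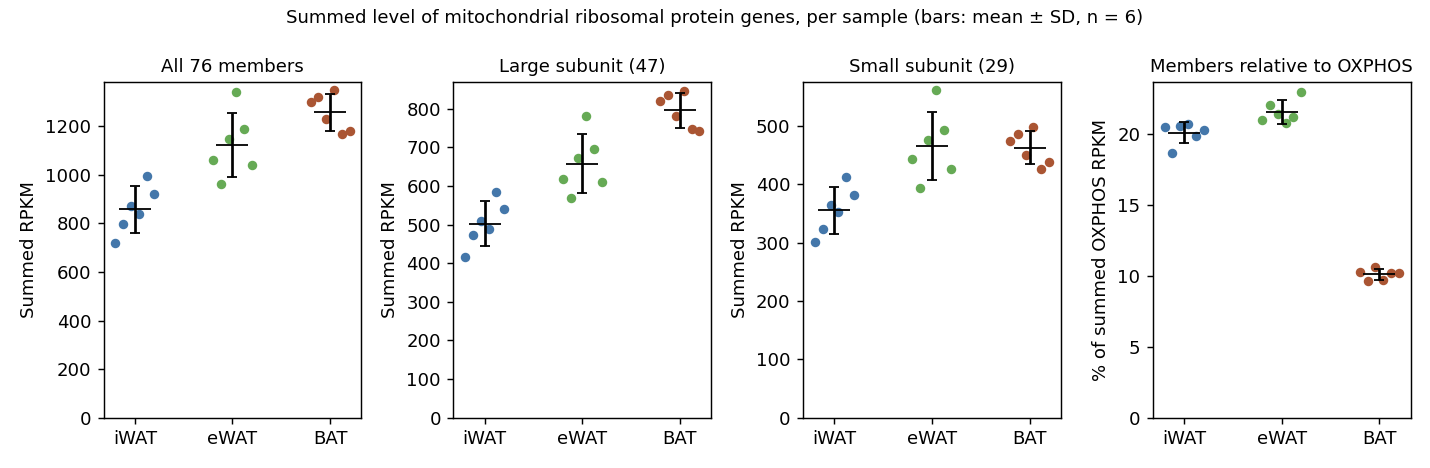
Summed RPKM per sample of all 76 members, of the large subunit and of the small subunit, and the members' sum as a percentage of the summed RPKM of 74 oxidative phosphorylation (OXPHOS) subunits, in iWAT, eWAT and BAT. Points are samples and bars are mean ± SD (n = 6). The iWAT sums lie below all BAT sums, and relative to OXPHOS the members stand at 18.7 to 20.7% in iWAT and 9.63 to 10.6% in BAT.

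The ratio of the 2 subunits' sums depended on Mrps6, the member with the highest level in both white depots. The large subunit summed to 1.38 to 1.46 times the small subunit in iWAT and to 1.70 to 1.75 times in BAT. Without Mrps6, with subunits by symbol, the ratio was 1.96 to 2.05 in iWAT and 1.84 to 1.90 in BAT. By symbol, the order of the depots thus turned. With Mrps18a and Mrps30 counted in the large subunit, where they sit in the structure, and Mrps36 left out, the ratio was 1.48 to 1.57 in iWAT and 1.98 to 2.04 in BAT. Mrps6 was still counted in this ratio. The ratio by structure without Mrps6 was not computed, so which depot would then be higher is not given here.

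Among themselves the members differed far more than the samples did. Mean RPKM ran from 1.71 (Mrpl19) to 105 (Mrps6) in iWAT and from 2.23 (Mrpl48) to 81.1 (Mrpl34) in BAT, with medians of 8.44 and 13.3. The median coefficient of variation of a member over the 6 samples was 8.19% in BAT, 12.6% in iWAT and 12.7% in eWAT. The 5 members with the highest levels held 24.3% of the summed RPKM in iWAT and 20.7% in BAT. The order of the members was alike in iWAT and BAT (Spearman's rho = 0.91 over 76 members, which share gene lengths and libraries) and less so in eWAT and BAT (rho = 0.70), where row lengths differ.

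To ask which members differed between iWAT and BAT, the counts of all 19733 expressed merged rows were fitted together with edgeR. Of the 76 members, 69 were lower in iWAT, 1 was higher and 6 did not pass the test (adjusted p under 0.05). Over all rows tested 33.6% were lower and 34.0% higher. The median log2 fold change was -0.81 for the members (a level of 0.571 times that in BAT) and 0.01 for all rows. In RPKM, 48 members were lower in every iWAT sample than in every BAT sample (16.0% of all rows tested), 2 were higher in every iWAT sample (31.6% of all rows) and 26 overlapped. These fold changes rest on TMM scaling (edgeR's normalisation by trimmed means). Without it the median of all rows rose by 0.26, 65.8% and not 50.3% of all called rows were higher, and 54 members were lower and 2 higher.

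**Figure D2:**
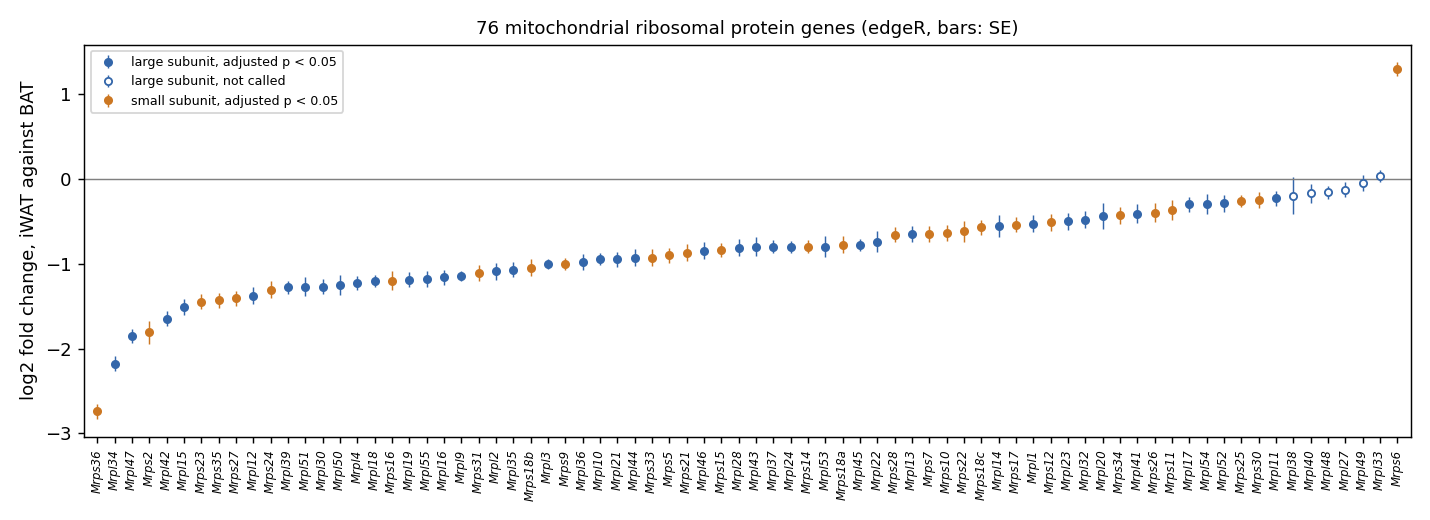
Log2 fold change of each of the 76 members in iWAT against BAT, ordered from the lowest, with its standard error. Blue points are large-subunit and orange points small-subunit members, and open points did not pass the test. From Mrps36 at -2.74 the values run without a gap between the subunits up to Mrpl33 at 0.03, and Mrps6 stands apart at 1.29.

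Both subunits were mostly lower. In the large subunit 41 of 47 members were lower in iWAT, none was higher (0 also at an unadjusted p under 0.05 and with DESeq2), and the median log2 fold change was -0.81. In the small subunit 28 of 29 were lower and 1 was higher, with a median of -0.80. By structure the counts were 43 lower of 49 in the large subunit (median -0.80) and 25 lower and 1 higher of 26 in the small subunit (median -0.82). Members with a bacterial counterpart and those found only in mitochondria were both mostly lower, 28 of 30 (median -0.97) and 15 of 19 (median -0.78) in the large subunit, and 15 of 16 (median -0.73) and 10 of 10 (median -0.99) in the small subunit. The 19 include Mrps18a, which sits in the large subunit but is related to a bacterial small-subunit protein.

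The largest differences were those of Mrps36, Mrpl34, Mrpl47 and Mrps2. Mrps36 (chr13:101505895-101514614 in mm9) was first described as a ribosomal protein and is now regarded as a subunit of the 2-oxoglutarate dehydrogenase complex of the citric acid cycle. Its RPKM was 7.70 in the lowest, 9.06 in the median and 10.2 in the highest iWAT sample, and 43.1, 51.0 and 54.2 in BAT. The depots did not overlap, and Mrps36 was lower in iWAT by 2.74 ± 0.09 on the log2 scale (SE, edgeR adjusted p = 2e-11). Mrpl34 (chr8:73988825-73989652), a short protein with a bacterial counterpart in the core of the large subunit, had 19.1, 21.6 and 23.9 RPKM in iWAT and 69.0, 82.1 and 92.8 in BAT. It was the member with the highest level in BAT, all BAT samples stood above all iWAT samples, and its log2 fold change was -2.18 ± 0.09 (edgeR adjusted p = 1.2e-10). Mrps2, a small-subunit protein with a bacterial counterpart, had 4.42, 5.82 and 6.57 RPKM in iWAT and 14, 15.3 and 19.9 in BAT. Its depots did not overlap either, with a log2 fold change of -1.81 ± 0.14 (edgeR adjusted p = 3.9e-08).

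The promoters of 67 members were found in RefSeq (build GRCm38.p6, from 250 bases before to 50 after the start of the gene, 73 windows). Genes for mitochondrial proteins are known to be bound by NRF1, by GABP, a factor of the ETS family, and by YY1, so 3 short motifs were searched on both strands. GCGCATGC, as NRF1 binds, was in 11% of the members' windows and in 2.71% of all 32851 windows. CCGGAAG, an ETS motif, was in 32.9% and 8.86%, and AAGATGGC, as YY1 binds, in 16.4% and 2.75%. A match of letters is not a bound site. In iWAT against BAT, 32 of the 36 members with any of the motifs were lower (median log2 fold change -0.84), and so were 29 of the 31 without (median -0.81). The windows printed here are those of the 2 members with the lowest fold change, of Mrps18b, which carries 2 of the motifs, and of the exception Mrps6, with motif letters in capitals. They lie at chr8:71464676-71464975 on the plus strand (Mrpl34), chr13:100744610-100744909 on the minus strand (Mrps36), chr17:35916391-35916690 on the minus strand (Mrps18b) and chr16:92058086-92058385 on the plus strand (Mrps6).
Mrpl34: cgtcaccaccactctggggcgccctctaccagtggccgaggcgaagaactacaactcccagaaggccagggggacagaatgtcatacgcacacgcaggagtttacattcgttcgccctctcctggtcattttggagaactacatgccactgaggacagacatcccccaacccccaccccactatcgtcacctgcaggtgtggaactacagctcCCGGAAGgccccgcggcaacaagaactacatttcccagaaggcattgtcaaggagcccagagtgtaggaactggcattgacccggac
Mrps36: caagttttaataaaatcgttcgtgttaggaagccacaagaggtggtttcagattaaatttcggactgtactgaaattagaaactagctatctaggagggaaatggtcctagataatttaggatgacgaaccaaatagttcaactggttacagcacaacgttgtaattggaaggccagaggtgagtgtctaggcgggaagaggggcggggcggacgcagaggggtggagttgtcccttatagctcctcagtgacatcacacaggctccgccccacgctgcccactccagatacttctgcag
Mrps18b: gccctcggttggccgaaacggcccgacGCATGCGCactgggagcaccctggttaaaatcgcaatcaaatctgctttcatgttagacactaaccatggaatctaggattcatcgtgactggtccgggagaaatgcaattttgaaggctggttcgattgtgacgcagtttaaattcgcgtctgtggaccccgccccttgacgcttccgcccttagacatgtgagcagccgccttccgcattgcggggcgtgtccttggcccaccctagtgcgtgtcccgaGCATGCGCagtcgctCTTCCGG
Mrps6: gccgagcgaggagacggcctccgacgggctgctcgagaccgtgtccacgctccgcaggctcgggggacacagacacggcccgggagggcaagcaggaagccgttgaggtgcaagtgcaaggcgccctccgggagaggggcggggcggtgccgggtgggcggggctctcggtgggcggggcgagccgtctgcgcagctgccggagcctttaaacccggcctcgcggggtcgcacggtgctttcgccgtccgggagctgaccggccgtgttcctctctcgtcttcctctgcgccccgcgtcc
Mrpl34 has the ETS motif 37 bases before the start, and Mrps18b the NRF1 motif at 223 bases before and 29 bases after the start with the ETS motif at 44 bases after it. None of the 3 motifs is in the windows of Mrps36 and Mrps6.

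The stalk of the large subunit, which recruits translation factors, was lower in all 5 of its members (median log2 fold change -0.80). Mrpl12, the stalk protein that contacts the factors, had 20.1, 22.7 and 30.3 RPKM in iWAT and 47.1, 51.3 and 56.6 in BAT. No sample of the depots overlapped, and the log2 fold change was -1.38 ± 0.10 (edgeR adjusted p = 4.4e-08). Mrpl10, which anchors Mrpl12, had 7.34, 8.20 and 9.35 RPKM in iWAT and 12.5, 13.1 and 13.5 in BAT, again without overlap (log2 fold change -0.95 ± 0.07, edgeR adjusted p = 4.4e-08). Mrpl53, a mitochondrion-specific protein of the stalk and among the 5 highest members in every depot, had 23.0, 27.5 and 40.1 RPKM in iWAT and 37.3, 43.1 and 45.8 in BAT. The highest iWAT sample reached into the BAT range (log2 fold change -0.80 ± 0.12, edgeR adjusted p = 4.8e-05). Of the annotated exonic bases of Mrpl53, 87.1% also lie in the exons of Ccdc142. Mrpl11, at the base of the stalk, differed least, with RPKM of 5.67 to 7.92 in iWAT and 5.71 to 7.24 in BAT. These ranges overlap nearly whole, and its call (log2 fold change -0.23 ± 0.09, edgeR adjusted p = 0.038) rested on the scaling, with 0.04 (edgeR adjusted p = 0.76) without TMM. It was also lost without iWAT sample 7, 11, 12 or 15 or BAT sample 7 (adjusted p up to 0.10).

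The tunnel through which the new chain leaves the ribosome opens at the inner membrane, and all 6 members around its exit were lower in iWAT (median log2 fold change -0.76). Mrpl47 (chr3:32624319-32636527), at the exit, had 3.09, 3.28 and 3.96 RPKM in iWAT and 9.67, 10.2 and 10.9 in BAT. All iWAT samples were far below BAT, and the log2 fold change was -1.85 ± 0.08 (edgeR adjusted p = 2.4e-10). Mrpl45, which ties the ribosome to the inner membrane, had 6.65, 7.53 and 8.67 RPKM in iWAT and 9.98, 10.7 and 12.6 in BAT. Mrpl24, which lines the tunnel, had 10.5, 12.5 and 13.7 RPKM in iWAT and 16.7, 17.3 and 20.9 in BAT. Neither overlapped between the depots (log2 fold change -0.78 ± 0.07 for Mrpl45 and -0.80 ± 0.07 for Mrpl24).

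Mrpl23, also at the tunnel exit, had rows at 2 loci. Its row with most reads was not that of the gene with introns (chr7:149718704-149726652 in mm9) but a single-exon row of 544 bases on chromosome 2 (chr2:74429431-74429974), with 5533 reads over the 12 iWAT and BAT samples against 282 for the gene. All 438 coding bases of the gene before its stop codon are found unchanged, without introns, at chr2:74429509-74429949. The 60 bases across the junction between coding exons 2 and 3 are shown because this stretch is broken by an intron of 942 bases in the gene and runs through in the copy (chr2:74429780-74429839, minus strand). Coding exon 3 is in capitals, and both loci hold the same letters. From which locus the reads arose cannot be told apart over these bases.
Mrpl23: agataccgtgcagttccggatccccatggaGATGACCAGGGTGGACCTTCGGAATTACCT
The copy row had 21.0, 26.1 and 33.6 RPKM in iWAT and 28.8, 30.7 and 34.6 in BAT (log2 fold change -0.50 ± 0.10, edgeR adjusted p = 0.00052). The gene's own row had 0.0462, 0.0847 and 0.147 RPKM in iWAT and 0.157, 0.239 and 0.276 in BAT, where it did not overlap iWAT (log2 fold change -1.57, edgeR adjusted p = 9.2e-05). These values rest on only 7 to 21 reads per iWAT sample and 20 to 41 per BAT sample. Without TMM the call of the copy row was lost (log2 fold change -0.23, edgeR adjusted p = 0.06).

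The central protuberance, the crown of the large subunit that faces the small subunit, held most of the members that did not pass the test. Of its 8 members 4 were lower (Mrpl18, Mrpl46, Mrpl52 and Mrpl55) and 4 were not called (Mrpl27, Mrpl38, Mrpl40 and Mrpl48), with a median log2 fold change of -0.25. Mrpl27, close to the site of peptide bond formation, had 9.99, 12.8 and 14.7 RPKM in iWAT and 10.3, 11.4 and 13.1 in BAT, with full overlap (log2 fold change -0.13 ± 0.09, edgeR adjusted p = 0.21). Mrpl38 had 10.6, 12.6 and 28.7 RPKM in iWAT and 12.9, 14.6 and 16.4 in BAT. Here a single iWAT sample (number 11) stood high. The log2 fold change of Mrpl38 was -0.20 ± 0.22 (edgeR adjusted p = 0.42), and without that sample -0.48 (adjusted p = 0.0018). Mrpl40 had 12.8, 16.5 and 18.4 RPKM in iWAT and 13.9, 14.4 and 16.2 in BAT (log2 fold change -0.17 ± 0.11, edgeR adjusted p = 0.16). Mrpl52 was called at -0.29 ± 0.10 (edgeR adjusted p = 0.024), a call that was lost without iWAT sample 7 (adjusted p = 0.066), 12 (adjusted p = 0.065) or 13 (adjusted p = 0.055). Without TMM the log2 fold change of Mrpl52 was -0.03 (adjusted p = 0.84), and without the filter on low counts -0.23 (adjusted p = 0.12). Outside the protuberance, only Mrpl33 and Mrpl49 did not pass the test.

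Mrpl33 and Mrpl49 had the log2 fold changes nearest to 0. Mrpl33, with a bacterial counterpart, had 4.54, 4.75 and 5.32 RPKM in iWAT and 3.49, 3.96 and 4.35 in BAT. Its RPKM was higher in every iWAT sample, but the scaled log2 fold change was 0.03 ± 0.07 (edgeR adjusted p = 0.69) and became 0.30 (adjusted p = 0.0018) without TMM. Its merged row has 33 exons in 12154 bases and spans chr5:31899308-32387378. The coding sequence of Mrpl33 aligned to only chr5:31916374-31952851 of that, at 96.0% identity. Exons of Bre, on the same strand, overlap 2.0% of the 7473 annotated exonic bases of Mrpl33. The share of the 12154 bases of the row that lies in other genes was not computed. How many of the row's reads came from Mrpl33 itself was not tested. Mrpl49, a mitochondrion-specific protein, had 12.3, 16.1 and 18.4 RPKM in iWAT and 12.5, 13.6 and 14.6 in BAT, which overlap (log2 fold change -0.05 ± 0.09, edgeR adjusted p = 0.61).

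Of the other large-subunit members by place or level, Mrpl44, which has the fold of an RNase, had 6.35, 8.52 and 9.74 RPKM in iWAT and 12.1, 13.7 and 14.2 in BAT, without overlap (log2 fold change -0.93 ± 0.10). Mrpl30 had 9, 10.9 and 13.9 RPKM in iWAT and 19.6, 21.9 and 24.4 in BAT, also without overlap (log2 fold change -1.27 ± 0.09). Mrpl20 and Mrpl41 changed less. Mrpl20 had 16.8, 24.3 and 34.3 RPKM in iWAT and 23.4, 26.7 and 32.8 in BAT (log2 fold change -0.44 ± 0.15), and Mrpl41 had 6.30, 8.81 and 9.86 in iWAT and 8.41, 9.02 and 10.9 in BAT (log2 fold change -0.41 ± 0.11). The depots overlapped in both, and both calls were lost without TMM.

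In the small subunit, all 8 members of the head were lower in iWAT (median log2 fold change -0.96). The lowest was Mrps35, found only in mitochondria, with 2.22, 2.35 and 2.93 RPKM in iWAT and 4.67, 5.52 and 6.06 in BAT. Its depots did not overlap (log2 fold change -1.43 ± 0.09, edgeR adjusted p = 1.1e-08). Mrps12, at the decoding centre, had 10.8, 12.3 and 14.7 RPKM in iWAT and 13.1, 14.7 and 19.1 in BAT. The ranges overlapped (log2 fold change -0.51 ± 0.10, edgeR adjusted p = 0.0003). Mrps21, with a bacterial counterpart, had 15.1, 20.4 and 24.5 RPKM in iWAT and 27.2, 29.8 and 34.7 in BAT, without overlap (log2 fold change -0.87 ± 0.10). Mrps34, a mitochondrion-specific protein, had 18.5, 25.1 and 28.3 RPKM in iWAT and 24.7, 26.3 and 31.7 in BAT. These overlapped (log2 fold change -0.43 ± 0.10). Of the annotated exonic bases of Mrps34, 70.6% lie in exons of Mapk8ip3 on the other strand, which the counting did not visibly separate. Without TMM the calls of Mrps12 (log2 fold change -0.25, edgeR adjusted p = 0.055) and Mrps34 (-0.16, adjusted p = 0.19) were lost.

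Mammals have 3 relatives of a single bacterial small-subunit protein, and all 3 were lower in iWAT. Mrps18b had 11, 13.9 and 16.0 RPKM in iWAT and 21.5, 23.3 and 25.3 in BAT, without overlap (log2 fold change -1.05 ± 0.10). These values are of its row with most reads, 7100 over the 12 iWAT and BAT samples. Another row of the symbol held 6274 reads, and its values are not given here. Exons of Gm16279 on the other strand overlap 30.5% of the annotated exonic bases of Mrps18b. A stretch on chromosome 2 matches 54.6% of its coding sequence at 99.8% identity. Mrps18a, which sits in the large subunit, had 4.10, 4.82 and 5.88 RPKM in iWAT and 5.94, 7.03 and 7.88 in BAT (log2 fold change -0.78 ± 0.10). Its highest iWAT sample was just under the lowest BAT sample. Mrps18c had 2.37, 2.94 and 3.23 RPKM in iWAT and 3.14, 3.59 and 3.93 in BAT, which overlap slightly (log2 fold change -0.57 ± 0.09). Mrps30, the other protein of this name in the large subunit, had 3.97 to 5.45 RPKM in iWAT and 4.17 to 5.26 in BAT. Its ranges overlapped nearly whole, and its call (log2 fold change -0.25 ± 0.09, edgeR adjusted p = 0.022) became 0.02 (adjusted p = 0.84) without TMM. The call was also lost without iWAT sample 11 (adjusted p = 0.061), 12 (adjusted p = 0.055) or 15 (adjusted p = 0.054).

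Mrps6 (chr16:92058567-92112472), a small-subunit protein with a bacterial counterpart, was the exception. Its RPKM was 90.5 in the lowest, 105 in the median and 122 in the highest iWAT sample, against 32.5, 34.3 and 43.1 in BAT. Every iWAT sample stood above every BAT sample, with a log2 fold change of 1.29 ± 0.08 (edgeR adjusted p = 7e-09). Mrps6 shares its first exon, on the same strand, with Slc5a3, the inositol transporter. Of the 1590 annotated exonic bases of Mrps6, 43.8% lie in exons of Slc5a3. The row measured has 794 bases, and its own share was not computed. Slc5a3 was higher in iWAT too, with 7.10, 13 and 15.3 RPKM against 2.21, 2.68 and 3.84 in BAT (log2 fold change 1.89 ± 0.18, edgeR adjusted p = 4.3e-07). The deposited exon signals give the lowest and the highest exon of each row. In all 6 samples of either depot the lowest exon signal of Mrps6 equalled the highest of Slc5a3, which is the value of the shared exon if 1 exon gave both. Scaled to RPKM, that signal was 69.3, 82.7 and 88.7 in iWAT and 21.5, 23.6 and 29.7 in BAT, and the highest exon of Mrps6 was at 99.3, 116 and 137 in iWAT and 36.5, 37.8 and 49.6 in BAT. Neither signal overlapped between the depots.

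**Figure D3:**
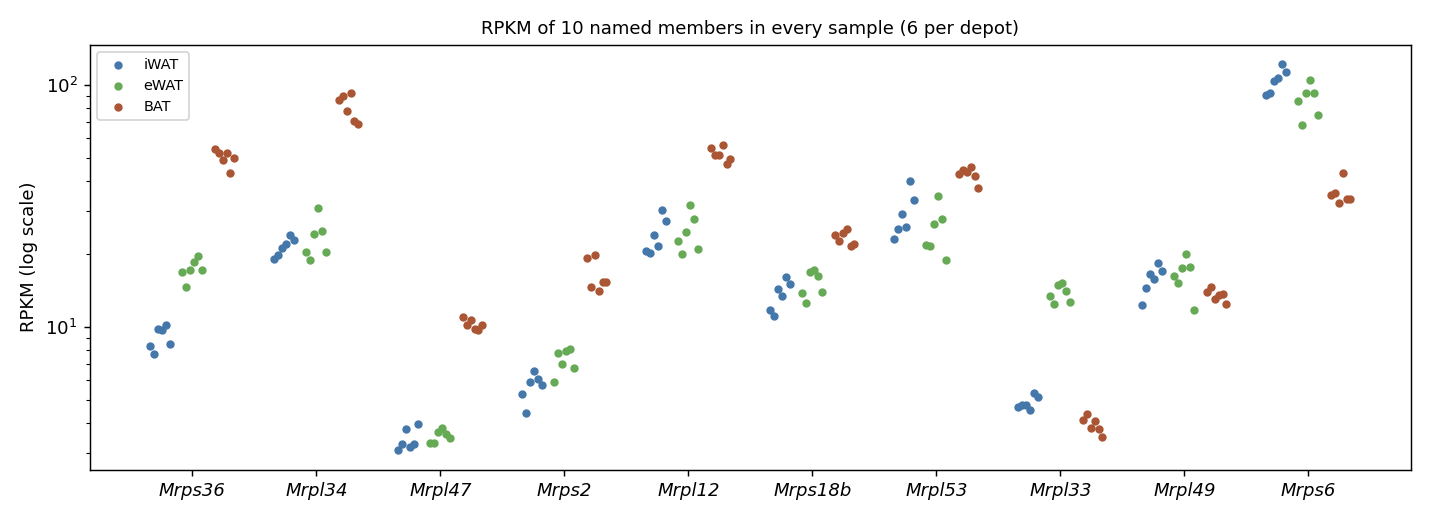
RPKM of 10 members in each of the 6 iWAT, 6 eWAT and 6 BAT samples, on a log axis. Mrps36, Mrpl34, Mrpl47, Mrps2, Mrpl12 and Mrps18b are lower in every iWAT sample than in every BAT sample, Mrpl53 and Mrpl49 overlap, and Mrps6 lies at 90.5 to 122 in iWAT and 32.5 to 43.1 in BAT. The eWAT points are those of a single transcript, as for Mrpl33.

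Reads of near-identical sequences touched other members as well. A total of 11 members had 14 intronless copies elsewhere in the genome (at least 95% identity over at least 90% of the coding sequence). Rows over such copies held 48.7% of the reads of own row and copy together for Mrpl48, 45.7% for Mrpl51 and 41.5% for Mrpl42. Reads of short single-exon rows over copies were added for Mrpl27, Mrpl42, Mrpl48, Mrpl51, Mrps21, Mrps33 and Mrps36 only. Then 70 members were lower and 1 was higher in iWAT, and Mrpl48 passed the test (log2 fold change -0.39, edgeR adjusted p = 0.00011). The row over the Mrpl22 copy, of 1300010F03Rik, held 57210 reads against 2262 of the own row, and was not added. In the GENCODE annotation, exons of 25 members overlap exons of another gene, 22 of them on the opposite strand, and 9 with over 20% of their bases. These shares are of annotated exons and not of the rows measured. Among the 57 members with neither a copy nor such an overlap, 53 were lower, none was higher, and the median log2 fold change was -0.81. Mrpl33, with its wide merged row, was counted among them. The 4 read-through rows were also lower in iWAT, from -0.35 (Mrps34 with Nme3, edgeR adjusted p = 0.003) to -1.15 (Mrps24 with Urgcp, adjusted p = 2.7e-09).

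In eWAT against BAT, a comparison with the same BAT samples, 73 of the 76 members were lower, 1 was higher (Mrps6) and 2 did not pass the test (Mrpl20 and Mrpl49), in an edgeR fit of the counts of 18383 symbols over all 18 samples. Over all symbols 34.7% were lower and 35.6% higher, and the median log2 fold change was -1.11 for the members and 0.03 for all symbols. The count of a merged row can hold more reads than that of 1 transcript, which lowers eWAT in this fit. With row length as an offset 57 members were lower and 10 were higher (34.0% and 39.9% of all symbols), with a median of -0.95. In both fits 56 members were lower (27.7% of all symbols) and Mrps6 was higher (29.8% of all symbols), while 9 were called in opposite directions. With limma on log2(RPKM + 0.1), 38 members were lower and 23 higher, with a median of -0.23 for the members and 0.71 for all symbols. The large subunit had 45 of 47 members lower in the counts and 38 lower and 4 higher with the offset, and the small subunit 28 of 29 lower and 19 lower and 6 higher.

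The members with rows of similar length were also mostly lower. Among the 28 whose eWAT transcript was at least 0.9 times as long as the merged row, 26 were lower, 1 was higher and the median log2 fold change was -1.02 in the counts and -1.40 with the offset. The offset thus gave a lower median even where row lengths were similar, and for Mrpl34, with equal lengths, it gave -2.53. In the fit of rows identical in both kinds of table, 7 of 8 members were lower. Mrpl34, whose row is the same in all tables, had 18.9, 22.2 and 31.1 RPKM in eWAT against 69.0 to 92.8 in BAT (log2 fold change -2.13 ± 0.11, edgeR adjusted p = 7.8e-12). Mrpl12 had 20, 23.6 and 32 RPKM in eWAT, also below all BAT samples, and Mrpl47 3.30, 3.54 and 3.81 (log2 fold change -2.32 ± 0.08). Mrps36 had 14.6, 17.2 and 19.5 RPKM in eWAT, with a log2 fold change of -2.71 ± 0.09, and -2.26 with the offset. Mrps6 had 68.4, 88.6 and 104 RPKM in eWAT, above every BAT sample (log2 fold change 0.94 ± 0.10, edgeR adjusted p = 9.3e-08). For Mrps35, in contrast, the fit decided. Its log2 fold change was -2.10 ± 0.11 in the counts and -0.11 (edgeR adjusted p = 0.37) with the offset, and its eWAT transcript has 1067 bases against 5562 of the merged row.

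In eWAT against iWAT no direction of the members as a set could be settled. In the counts 22 of the 76 were lower in eWAT, none was higher in edgeR (0 higher and 29 lower at an unadjusted p under 0.05, and 0 and 22 with DESeq2), and the median log2 fold change was -0.14. Over all symbols 13.4% were lower and 12.3% higher. With the row length as offset 35 were lower and 24 higher (24.2% and 28.2% of all symbols), with a median of -0.25. Of the 22 lower members 21 were among the 48 with a shorter eWAT transcript and 1 (Mrps6) among the 28 with a transcript of at least 0.9 times the merged length. With the offset, 25 of these 28 were lower (median -0.43, against -0.09 in the counts). In the edgeR fit of identical rows 0 of 8 members passed the test, with 1 lower at an unadjusted p under 0.05. By subunit, 13 of 47 large-subunit and 9 of 29 small-subunit members were lower in the counts.

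**Figure D4:**
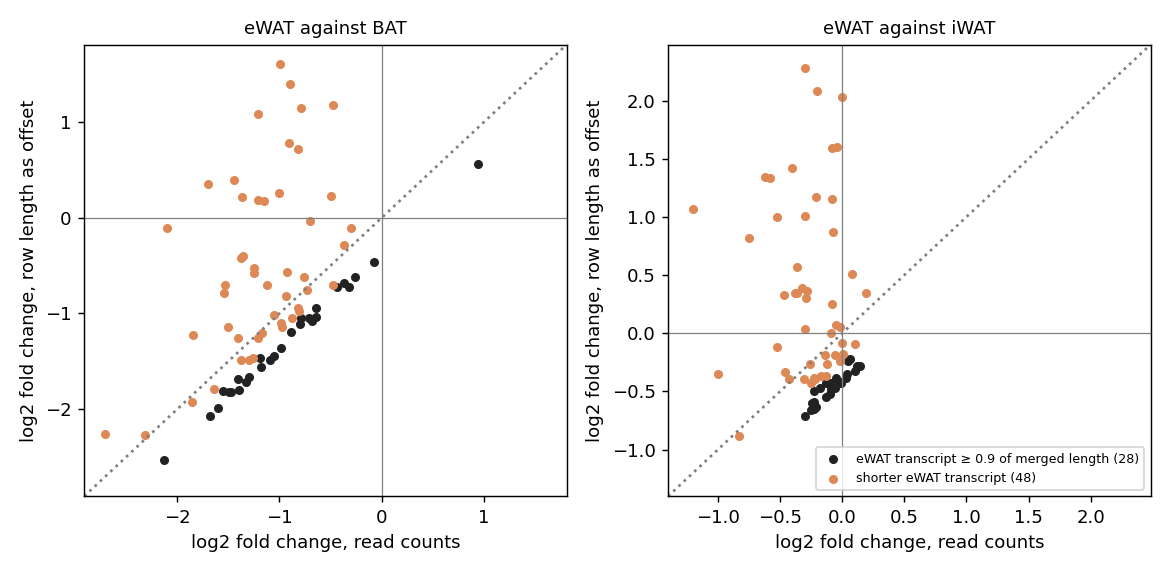
Log2 fold change of the 76 members in eWAT against BAT (left) and eWAT against iWAT (right), from read counts (horizontal) and with row length as offset (vertical). Black points are the 28 members whose eWAT transcript is at least 0.9 times as long as the merged row, orange points the 48 with a shorter one, and the dotted line marks equal values. Against BAT, 26 of the 28 black points are lower and 1 is higher in the counts, and 27 and 1 with the offset.

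Single members differed widely between the 2 fits. Mrpl33 was the lowest in the counts (log2 fold change -1.20 ± 0.08, edgeR adjusted p = 3.6e-09), but its RPKM was 12.5, 13.7 and 15.2 in eWAT and 4.54 to 5.32 in iWAT. With the offset it was higher (log2 fold change 1.07, adjusted p = 5.5e-09), and its eWAT row has 1888 bases against 12154. Mrps18c turned in the same way, from -0.75 ± 0.11 to 0.82. The 5 members lower in both fits were Mrpl46, Mrpl47, Mrpl52, Mrps5 and Mrps6, and none was higher in both, against 7.57% and 9.26% of all symbols. Mrpl52 had 4.43, 5.34 and 7.74 RPKM in eWAT and 6.19, 7.87 and 8.94 in iWAT, which overlap (log2 fold change -0.83 ± 0.13, edgeR adjusted p = 0.00018, and -0.88 with the offset). Mrpl38 had 10.5, 14.7 and 26.8 RPKM in eWAT and was called in the counts (-1.0 ± 0.24, adjusted p = 0.0054) but not with the offset (-0.35, adjusted p = 0.22). The members with the highest fold change, Mrpl20 (0.19 ± 0.14), Mrpl41 (0.14 ± 0.11), Mrps18b (0.12 ± 0.10) and Mrpl34 (0.10 ± 0.11), did not pass the test in the counts. Mrps21 and Mrpl30 had the highest eWAT levels beside Mrps6, Mrpl20 and Mrpl53, with 51.2 to 79.8 and 22.3 to 32.1 RPKM, and their log2 fold changes of -0.08 ± 0.12 and -0.07 ± 0.11 did not pass in the counts either. With the offset both were higher, Mrps21 by 1.15 (edgeR adjusted p = 3.9e-07) and Mrpl30 by 0.87 (adjusted p = 5e-06), and the RPKM of both was higher in every eWAT sample than in every iWAT sample.

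The remaining machinery of mitochondrial translation was mostly lower in iWAT than in BAT too. Over all rows tested 33.6% were lower and 34.0% higher. All 7 subunits with other names were lower in iWAT (median log2 fold change -0.65). They ran from Ptcd3, a small-subunit protein that binds RNA (3.31 to 4.71 RPKM in iWAT, 7.56 to 10.3 in BAT, log2 fold change -1.39), to Dap3, a GTP-binding small-subunit protein (5.43 to 7.26 and 5.44 to 6.56 RPKM, -0.22). The ranges of Dap3 overlapped. Without TMM the median of all rows rose by 0.26, and the calls of these related lists without TMM are not given here. Of 14 translation factors and helpers 12 were lower (median -1.06), the lowest being Taco1, needed to translate a subunit of cytochrome c oxidase (2.59 to 3.38 RPKM in iWAT, 7.32 to 9.88 in BAT, log2 fold change -1.72). Mrrf, the ribosome recycling factor, was not called (-0.01, edgeR adjusted p = 0.93). Of 20 mitochondrial tRNA synthetases and related enzymes 18 were lower (median -0.90, lowest Aars2 for alanine at -1.91), and of 21 assembly factors 19 (median -0.60, lowest Mettl17 at -1.52, with Mpv17l2 at -0.01 not called). Of 9 genes for the upkeep and transcription of mitochondrial DNA 8 were lower and Polg2, the accessory subunit of its polymerase, was higher (0.49, edgeR adjusted p = 0.027).

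**Figure D5:**
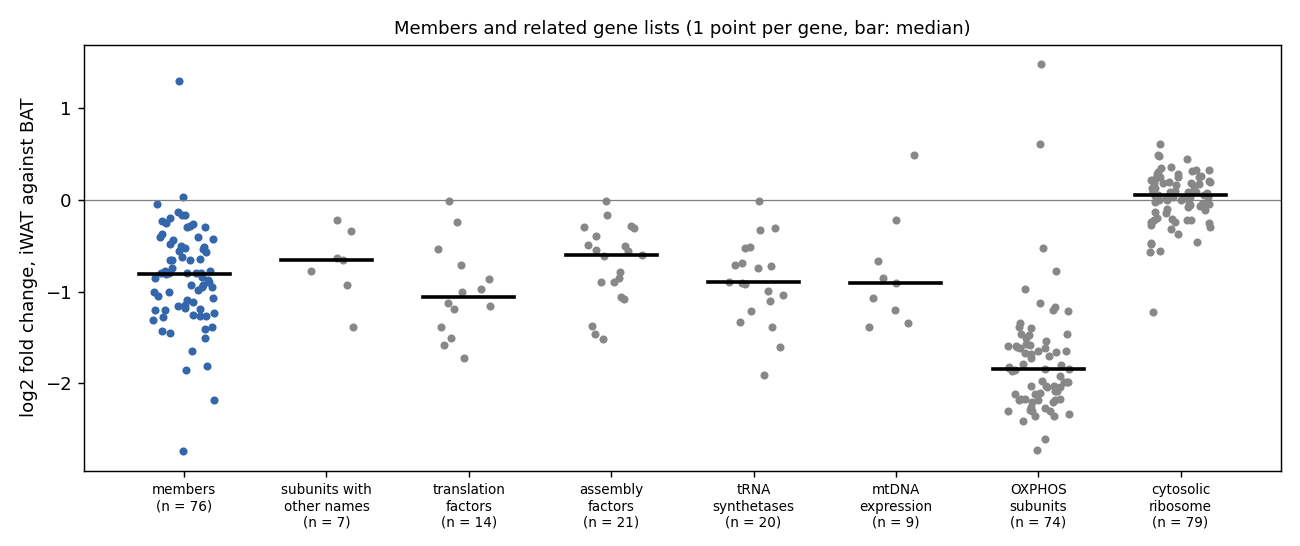
Log2 fold change in iWAT against BAT of each of the 76 members (blue) and of the genes of 7 related lists (grey), with the median as a bar. The members' median is -0.81, that of the OXPHOS subunits -1.84 and that of the cytosolic ribosomal proteins 0.05.

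Beside these, the members' median lay between that of nuclear OXPHOS subunits and that of the ribosomal proteins of the cytosol. Of 74 nuclear OXPHOS subunits 72 were lower and 2 higher in iWAT (median log2 fold change -1.84), with Cox5a of cytochrome c oxidase lowest (26.6 to 35.7 RPKM in iWAT, 151 to 183 in BAT, -2.73). Of 79 cytosolic ribosomal proteins 11 were lower and 16 higher (median 0.05). The members' summed RPKM was 18.7 to 20.7% of that of the OXPHOS subunits in iWAT, 20.8 to 23.0% in eWAT and 9.63 to 10.6% in BAT. Relative to the cytosolic ribosomal proteins it was 19.7 to 23.4% in iWAT and 34.3 to 44.6% in BAT. In neither ratio did iWAT and BAT samples overlap. The 15 genes of mitochondrial DNA were not matched by symbol and were not analysed here.

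Known regulators of nuclear genes for mitochondrial proteins did not move together, with 4 of 9 lower and 4 higher in iWAT (33.6% and 34.0% of all rows). Ppargc1b, a coactivator, had 1.24, 1.61 and 1.74 RPKM in iWAT and 12.5, 13.2 and 14.7 in BAT, without overlap (log2 fold change -3.38 ± 0.10, edgeR adjusted p = 1e-11). Its relative Ppargc1a had 0.801, 1.45 and 2.07 RPKM in iWAT and 4.34, 6.18 and 19.4 in BAT (-2.68 ± 0.35, edgeR adjusted p = 1e-05). At the other end, Myc, a growth regulator, had 33.6, 48.9 and 80.7 RPKM in iWAT and 0.314, 0.738 and 1.61 in BAT (5.85 ± 0.37, edgeR adjusted p = 6.7e-09), and Pprc1 was higher by 0.57 ± 0.24 (adjusted p = 0.049). The factors whose motifs were searched differed among themselves, with Gabpa lower (-0.76, edgeR adjusted p = 4.1e-05), Yy1 higher (0.40, adjusted p = 9.3e-05) and Nrf1 not called (0.17, adjusted p = 0.13).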

How the data were processed

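RNA was sequenced from 18 samples, 6 per depot, after an NEBNext Ultra kit. Per the labels, the authors used cutadapt (version 1.16) and HISAT2 (version 2.1.0), with reads placed on mm9 and counted in the Genomatix Genome Analyzer. The deposited read counts are per merged gene row in iWAT and BAT and per transcript row in eWAT, and reads are not visibly separated by strand. The deposited RPKM divides them by row length and a total of 22929576 to 34512470 reads per sample. The deposited exon signal (lowest and highest exon coverage of a row) was used for Mrps6 and Slc5a3 only.

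Counts were fitted with edgeR 4.0.16 (R 4.3.3, TMM, glmQLFit and glmQLFTest), keeping rows that reached 10 reads in 6 or more samples, with Benjamini-Hochberg adjustment over all rows tested and a threshold of 0.05. iWAT and BAT were compared over merged rows. For eWAT the row with most reads per symbol was taken in each kind of table, with all 18 samples in 1 fit. RPKM sums were described with no test. Alternatives were DESeq2 1.42.0, limma 3.58.1 on log2(RPKM + 0.1) or log2(RPKM + 1), other scalings and filters, row length as offset, other choices of row, a block for the number in the sample title, and leaving out each sample. Near-identical copies were sought with minimap2 2.31.

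Named members had a mean RPKM of at least 1 and were the 4 highest and 4 lowest by log2 fold change in each comparison, the 5 highest by level in each depot, and 14 chosen for their place in the ribosome. Examples in other lists were those with the largest and smallest fold change. Mrpl18, Mrpl46, Mrpl55 and Mrps5 were named after their values were seen. The members and lists were chosen with earlier results of these data known. No label says that the samples of a depot came from separate animals, so p-values measure the spread between samples. Among the rows that stood for the members, the lowest read count in any sample was 102 (Mrpl22).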

Additional observations from a re-analysis of the deposited data

Results flagged for a closer look

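In 5 of 99 groups of 6 samples a single sample stood apart from the others (its gap to the nearest sample over the range of the group was above the 95% critical value of Dixon's test), and chance alone flags about 1 in 20 groups. Mrpl38 had an RPKM of 28.7 in iWAT sample 11, where the others had 10.6 to 15.6, and 26.8 in eWAT sample 7, where the others had 10.5 to 15.5. Mrps6 had 43.1 in BAT sample 11, with the others at 32.5 to 35.6. Mrps12 had 19.1 in the same BAT sample, with the others at 13.1 to 15.2. Mrpl24 had 24.4 in eWAT sample 13, with the others at 17.5 to 20.1.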

How the results depend on the processing

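The number of members called was 70 in iWAT against BAT, 74 in eWAT against BAT and 22 in eWAT against iWAT. RLE scaling and DESeq2 gave the same 3 numbers, and the block for the number in the sample title gave 68, 75 and 15. The labels do not say whether samples of the same number came from the same mouse. Samples of the same number did not deviate together (13 pairs, correlations -0.35 to 0.18, 2 over 0.1, none best with its own number). Weak correlations cannot decide whether the mice were shared, so the block is not called a paired test. Leaving out each sample gave 66 to 70, 71 to 75 and 17 to 25, and leaving out eWAT samples 14 and 15 together gave 74 and 18. Rows identical in all tables gave 8, 7 and 0 of 8 members, and members with an eWAT transcript of at least 0.9 times the merged length gave 27 of 28 against BAT and 1 against iWAT, both with fewer members tested. In eWAT against iWAT the number was 35 with limma at either pseudocount (2 lower and 33 higher), 59 with row length as offset and 43 with the eWAT transcript of highest RPKM, and the median turned to 0.18 and 0.16 (limma) and 0.04 (highest RPKM). In eWAT against BAT limma gave 38 lower and 23 higher. Without a normalisation factor 65 were lower and 2 higher in eWAT against BAT, where the median of all symbols moved by 0.33 and 66.3% and not 50.6% of calls were higher. Scaled by TMM factors the BAT sums were 1460 (all), 925 (large subunit) and 537 (small subunit), and by structure the small subunit summed to 401 in BAT. Of the named members' alternatives, 1052 kept direction and call, 38 lost the call, 16 gained it and 28 reversed. In iWAT against BAT, Mrpl11 reversed to 0.04 without a factor and 0.03 with limma, and Mrps30 to 0.02 without a factor and 0.02 and 0.01 with limma. In eWAT against BAT, Mrpl20 reversed to 0.62 and 0.60, Mrps35 to 0.60 and 0.53 and Mrpl40 to 0.10 with limma, Mrpl40 to 0.07 without a factor, and Mrpl49 to 0.26 without a factor, 0.25 and 0.24 with limma and 0.32 with the highest RPKM. In eWAT against iWAT, limma reversed Mrpl33 (1.49 and 1.33), Mrps18c (1.22 and 1.01) and Mrpl38 (0.11 and 0.10), the offset Mrpl33 (1.07), Mrps18c (0.82), Mrpl34 (-0.32) and Mrps18b (-0.28), and the highest RPKM Mrpl20 (-0.70). The cause was not tested. The alternatives without eWAT samples 14 and 15, with copies added and by transcript length were chosen after seeing the data.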
